A study of Mus musculus with 4 samples.

Results

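H2-Ab1-positive luminal cells were examined in mouse mammary organoids, epithelial cultures grown in a gel of basement membrane (Matrigel). They were taken as cells with 1000 to 6000 detected genes, under 5% mitochondrial UMIs (unique molecular identifiers, each standing for a captured RNA molecule) and at least 3 UMIs in total on H2-Ab1 and H2-Aa. They also had under 300 CPM (UMIs scaled to the same total in every cell or sum) of Krt14 and of Areg, under 50 CPM of Tmigd1 and Sez6 together, under 100 CPM of the mitotic genes Cenpf, Ccnb2, Cdc20 and Birc5 together, and no UMI on Ptprc. The rule held for 2182 of 33268 barcodes, or of 10384 cells under the same limits. They were compared within each library with 5332 H2-Ab1-negative luminal cells, which passed the same limits and had no UMI on H2-Ab1 or H2-Aa. A further 2870 cells had 1 or 2 such UMIs and entered neither class.

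The 4 libraries were 1 each of wild-type control (WT control), wild-type organoids exposed to hydroxyurea (WT HU), Brca2mut/WT control and Brca2mut/WT HU organoids, and values are given in this order. Brca2mut/WT mice carry a truncating Brca2 allele in the germline, so every cell of the mouse is heterozygous, and the wild-type mice were their littermates. All 4 groups were cultured in reduced oxygen, as the methods of the study describe. The tissue came from virgin female mice, and the study chose aged mice for its organoid work. Their strain background is not given in the sources used here. Hydroxyurea (HU) stalls DNA replication, and the study gave it as short exposures repeated over serial passages. The study sequenced organoids of an early and a late passage, so a cell of an HU library may have had 1 exposure or several. The organoids had been frozen, thawed and cultured again before capture. Each label names 2 replicates within a library, but neither the passage nor the mouse of a cell could be read from the files. The antibody tags came without a key and were used only as unlabelled pools. H2-Ab1-positive cells numbered 753, 509, 577 and 343, with 19404027, 12981527, 15358688 and 10112720 gene UMIs in all, and negative cells 1494, 1648, 1081 and 1109. The median positive cell had 24997, 24290, 25486 and 29141 UMIs against 23619.5, 25013, 24579 and 27607 in negative cells, so the classes were sequenced to a like depth. Their median mitochondrial share was lower, 2.49%, 2.68%, 2.30% and 3.04% of UMIs against 3.45%, 3.55%, 3.31% and 3.4%, and its part in the results below was tested only by limiting both classes to 2 to 4%. Of all barcodes, 129 sequences occurred in more than 1 library, 3 of them among positive cells.

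H2-Ab1 encodes the beta chain of the I-A molecule, a mouse MHC class II protein. The beta chain pairs with the alpha chain encoded by H2-Aa, the invariant chain Cd74 escorts the pair to lysosomes, and the H2-DM complex helps to load peptides there for display to CD4+ T cells. Professional antigen-presenting cells such as dendritic cells, macrophages and B cells switch these genes on together through the coactivator Ciita, and many epithelia do so under interferon gamma.

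The name MHC class II positive rested here on 1 chain. H2-Ab1 (ENSMUSG00000073421, chr17:34257689-34269419, + strand, GRCm38) had 4298, 3166, 3858 and 2144 UMIs in positive cells, or 222, 244, 251 and 212 CPM. H2-Aa had 1 UMI in all positive cells together, found in WT HU, and 11 UMIs in the whole series against 44318 for H2-Ab1. The choice of cells fixed the first of these levels but not the imbalance between the chains, and the cells are called H2-Ab1-positive for that reason. Cd74 had 2 UMIs in positive and 13 in negative cells. H2-Eb1, the I-E beta chain, had 7 and 32, and H2-Eb2 and H2-Ob, the beta chain of the loading inhibitor H2-O, had none in either class. Ciita had 13 UMIs in positive cells (0.225 CPM over the 4 libraries) and 38 in negative cells (0.295 CPM). These genes were at or near the limit of detection, since a count of 0 in all positive cells still allows 0.0519 CPM, and no direction could be read for them.

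Other parts of the class II route were present in both classes and differed little. H2-DMb1, a chain of the loading complex, had 34.1, 39.8, 35.0 and 31.7 CPM in positive cells and 30.8, 35.5, 30.5 and 28.2 CPM in negative cells, a log2 difference of 0.21 (SE 0.0436, adjusted p = 0.00178, edgeR's quasi-likelihood test over 4 libraries with Benjamini-Hochberg adjustment). It was higher in positive cells in each library, although the levels of the classes overlapped across libraries. H2-DMa, its partner chain, had 2.83, 3.77, 2.86 and 3.66 CPM against 2.34, 2.43, 2.03 and 2.34 CPM, with no overlap (log2 0.55, SE 0.141). These were the 2 of 8 listed class II chains and chaperones with enough counts to be tested, and both were called higher, where 17.3% of all 13310 genes counted were called higher. Of 7 class II transcription genes tested, 2 were higher and 0 lower (median log2 0.03, against 0.00 over all genes). Rfxap, a subunit of the RFX complex that binds class II promoters, was the larger of them at log2 0.31. Of 10 lysosomal antigen processing genes 5 were higher and 0 lower (median 0.15), but among cells with 2 to 4% mitochondrial UMIs 1 was higher and 1 lower, and with library and antibody tag as the block 2 of 9 were higher. Ifi30, a lysosomal thiol reductase, rose by log2 0.28.

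**Figure D1:**
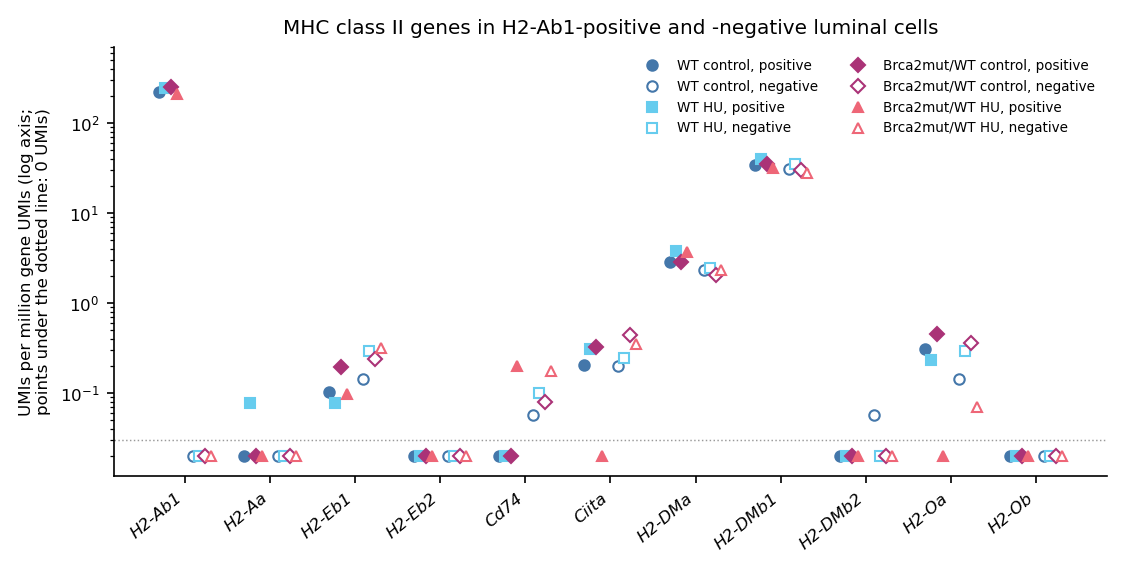
Levels of MHC class II genes in CPM (log axis) in H2-Ab1-positive (filled) and H2-Ab1-negative (open) luminal cells of the 4 libraries, with points under the dotted line at 0 UMIs. H2-Ab1 stood at 212 to 251 CPM in positive cells by choice, whereas H2-Aa, Cd74, H2-Eb1 and Ciita had under 1 CPM in both classes.

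The promoters of class II genes carry a Y box, bound by the factor NF-Y. Its letters CTGATTGG (on the other strand CCAATCAG) were searched in the 120 bases before each RefSeq start site (GRCm38.p6) on both strands. They were found in 934 of 32851 windows (2.84%) and in 4 of 9 windows of class II genes, those of H2-Aa, H2-Eb1, H2-Eb2 and H2-Oa. H2-Ab1 itself and Cd74 had no window and were not searched for either motif. The windows of H2-Aa (chr17:34287824-34287943, - strand) and H2-Eb1 (chr17:34305747-34305866, + strand) are shown because these genes carry the box but had almost no UMIs. Capitals mark the Y box.
H2-Aa: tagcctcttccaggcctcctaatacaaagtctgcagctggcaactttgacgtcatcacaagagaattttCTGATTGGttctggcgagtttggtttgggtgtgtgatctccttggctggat
H2-Eb1: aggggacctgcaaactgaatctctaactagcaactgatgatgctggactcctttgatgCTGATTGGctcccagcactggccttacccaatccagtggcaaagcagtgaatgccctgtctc

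Most, but not all, markers of immune cells were near 0 in the positive cells. Ptprc (CD45) was at 0 by the rule, although the limit removed 0 cells, and the leukocyte genes Laptm5, Tyrobp and Cd53 had 0 UMIs. Of 11 macrophage and dendritic cell markers, 8 had 0 UMIs in positive cells, among them Adgre1, C1qa, Flt3, Itgax and Lyz2. The list of 6 B cell markers had 5 UMIs in all, as had the list of 6 T cell markers. The immune list summed to 27.0, 9.78, 12.4 and 17.5 CPM in positive cells and 12.6, 6.22, 6.65 and 7.76 CPM in negative cells. Nearly all of this was Srgn, a proteoglycan also made by other cells, which had a mean of 16.1 CPM against 7.44 CPM (log2 1.14, SE 0.0881).

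The cells expressed luminal keratins. Krt8 was found in 2180 of 2182 positive cells, and its level was 1046, 1243, 1137 and 1184 CPM against 973, 1094, 1013 and 1058 CPM (log2 0.20). Krt18, its partner, was at 2263, 2392, 2536 and 2320 CPM against 1925, 1982, 1934 and 2009 CPM (log2 0.32) and did not overlap between the classes. Of 7 markers of luminal epithelium 5 were higher and 2 lower, the latter including the tight junction gene Cldn4 (log2 -0.87).

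The cut at 3 UMIs fell within a continuous range. Of the positive cells 610 had exactly 3 UMIs and 891 had 6 or more, and 1021 of the excluded cells had 2. The median positive cell had 5 UMIs in each library, and the highest had 27, 35, 41 and 34. Espn stood at 99.6, 75.8, 104 and 65.1 CPM in cells with 2 UMIs and at 129, 144, 165 and 87.1 CPM in cells with 3. Espn, itself named as a marker from these data, was higher at 3 than at 2 UMIs in every library, as it was at nearly every other step of the range.

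Espn, Apln and Selenbp1 were named as markers of these cells from the same data, so their levels are given as a description without a test. Espn encodes espin, which bundles actin filaments in microvilli and stereocilia. It had 236, 260, 314 and 227 CPM in positive cells and 36.5, 26.1, 37.6 and 31.5 CPM in negative cells, 8.12-fold more, and was detected in 1826 of 2182 against 1807 of 5332 cells. Apln, the secreted ligand apelin, had 42.4, 35.9, 51.2 and 34.4 CPM against 10.3, 6.25, 9.20 and 9.06 CPM, 4.86-fold more. Selenbp1, a selenium-binding protein with a closely related copy that could divide its reads, had 133, 157, 173 and 134 CPM against 44.1, 38.5, 44.5 and 36.7 CPM, 3.74-fold more. None of the 3 overlapped between classes in any pair of libraries. Other microvillus genes did not share the difference of Espn. Of 8 tested 2 were higher and 3 lower (median log2 -0.07), where 17.3% of all genes were higher and 17.4% lower, and Ezr and Eps8, which link and cap the actin of microvilli, were lower by log2 values of -0.29 and -0.54.

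The whole transcriptome was then compared. Of 13310 genes counted, without the 14 used in the rule or named as markers, 2307 (17.3%) were higher and 2312 (17.4%) lower in positive cells at an adjusted p under 0.05 (edgeR). At a difference of at least 1.5-fold 555 (4.17%) were higher and 501 (3.76%) lower. For 3100 genes (23.3%) the levels of the 4 libraries did not overlap between the classes. Calls were therefore common, and most were small. The counts below are to be read against these shares.

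**Figure D2:**
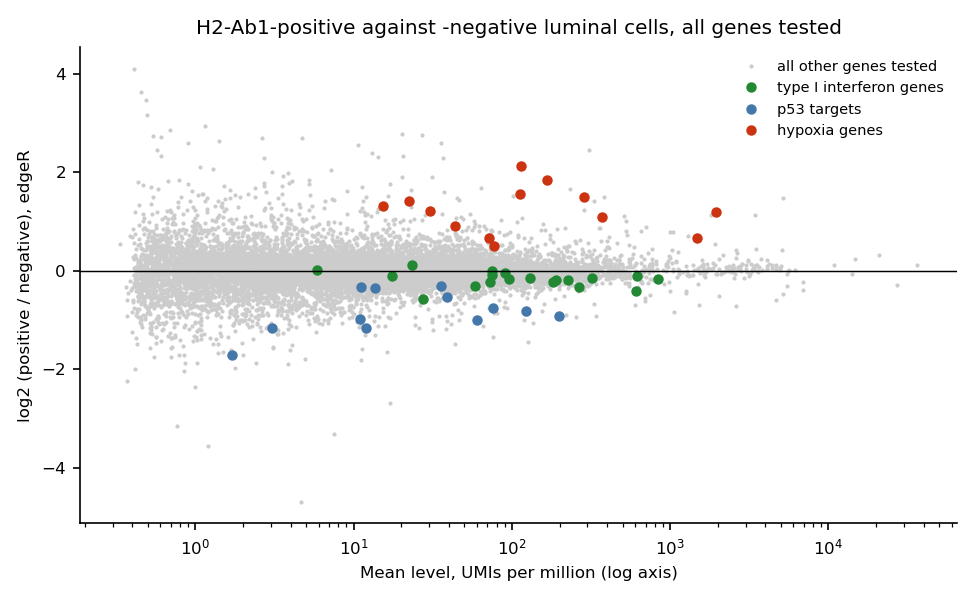
Log2 difference between H2-Ab1-positive and -negative luminal cells (edgeR) against the mean level in CPM (log axis) for every gene tested. The hypoxia genes (red) lay at 0.50 to 2.13, the p53 targets (blue) at -1.72 to -0.31, and the type I interferon genes (green) close to 0 and mostly below it.

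Genes induced by low oxygen were higher in H2-Ab1-positive cells. In hypoxia the prolyl hydroxylases of the EGLN family no longer mark the alpha subunits of hypoxia-inducible factor (HIF) for destruction through Vhl, and HIF then raises genes of glycolysis, glucose uptake, acid balance and vessel growth. The hypoxia list was chosen with earlier results of these data known, so its counts are not independent support. All 13 tested genes of the hypoxia list were higher, 12 of them by at least 1.5-fold (median log2 1.21, range 0.50 to 2.13), and none overlapped between classes. With Apln the list summed to 6060, 6369, 7093 and 6041 CPM in positive cells and 3180, 2832, 3459 and 3129 CPM in negative cells.

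Bnip3, a mitophagy receptor, had 246, 247, 290 and 255 CPM in positive and 80.9, 62.0, 82.6 and 71.4 CPM in negative cells (log2 1.85, SE 0.0484, adjusted p = 2.31e-11). Car9, a carbonic anhydrase at the cell surface, had 418, 422, 466 and 366 CPM against 176, 124, 171 and 141 CPM (log2 1.5, SE 0.0601, adjusted p = 8.17e-10). Pgk1, a glycolytic enzyme, had 2512, 2673, 3040 and 2528 CPM against 1235, 1014, 1343 and 1239 CPM (log2 1.20, SE 0.0507). For each of the 3 the lowest positive value lay far above the highest negative value. Ndrg1, a stress protein raised in hypoxia, had the largest difference of the list at log2 2.13 (SE 0.0647). Of the secreted factors, Vegfa, which drives vessel growth, was higher by log2 1.57, and Adm, the vasodilator adrenomedullin, by 1.42. Adm ran at 46.5 and 46.9 CPM in the positive cells of the control libraries but at 19.5 and 16.9 CPM in those of the HU libraries, and the same order held in negative cells (16.2 and 15.8 against 9.82 and 7.31 CPM). The smallest differences were those of Slc2a1, a glucose transporter (log2 0.66), Ldha, which makes lactate (0.66), and P4ha1, a collagen prolyl hydroxylase (0.50).

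**Figure D3:**
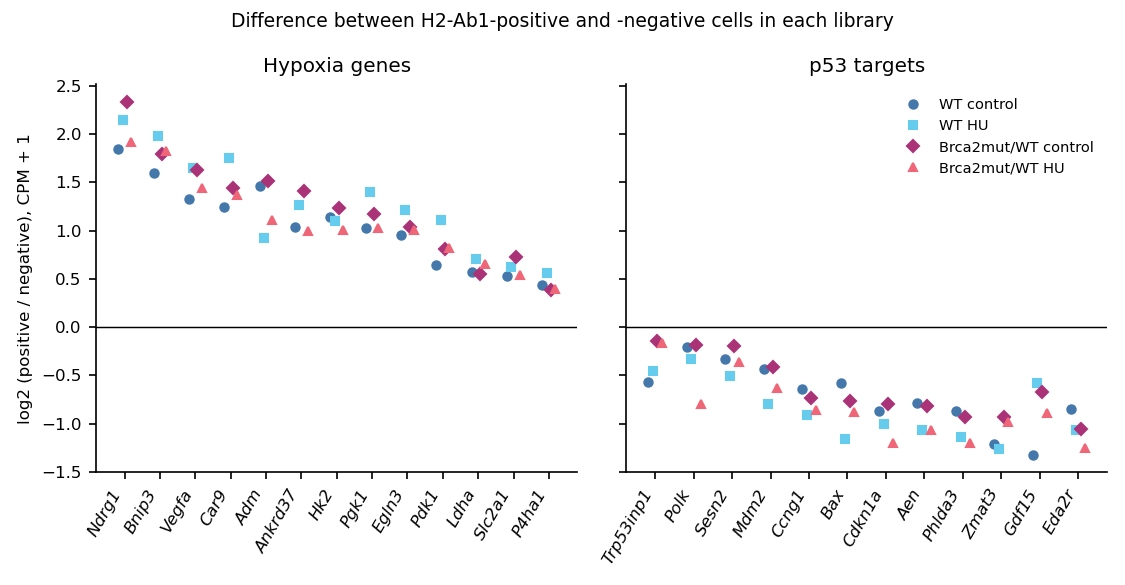
Log2 ratio of positive to negative cells (CPM + 1) in each library for the 13 hypoxia genes (left) and the 12 p53 targets (right). All points on the left lay above 0 and all on the right below it, in each of the 4 libraries.

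The lists of this paragraph were added later still, after its values were seen, so their counts are descriptions. Of 18 glycolysis genes 17 were called higher and 0 lower (median log2 0.70). Slc16a3, which exports lactate, had 58.8, 59.5, 67.3 and 57.4 CPM in positive cells against 15.6, 8.95, 15.7 and 11.6 CPM (log2 2.29, SE 0.0914). Gapdh was higher by log2 1.13, Pfkp, the platelet form of phosphofructokinase, by 0.95 and Tpi1, the triose phosphate isomerase, by 0.88. Of 8 HIF regulators 7 were higher and 0 lower (median 0.40), and 4 were higher among cells with 2 to 4% mitochondrial UMIs. Egln1, the main oxygen-sensing prolyl hydroxylase and itself a HIF target, had 343, 359, 394 and 319 CPM against 128, 97.1, 129 and 106 CPM (log2 1.67, SE 0.0541). Hif1a was higher by log2 0.84 and Vhl by 0.43. Gm15283 (log2 1.77), an antisense gene, spans the Hif1a locus on chromosome 12 (73843039 to 73949814), and the reads of an overlapping pair may be hard to separate. Of the 13 protein genes of the mitochondrial genome 9 were lower and 1 higher (median -0.26). mt-Cytb, a subunit of respiratory complex III, had 1718, 2171, 1599 and 2302 CPM against 2896, 3735, 3107 and 3304 CPM (log2 -0.71). Limiting both classes to 2 to 4% mitochondrial UMIs holds the sum of these same genes to 1 range, so it cannot test their difference. In those cells 5 were lower and 4 higher (median -0.01). All 13 hypoxia genes were still higher there (median 1.03).

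HIF binds the letters ACGTG (on the other strand CACGT), which were found in 3091 of 32851 windows of 120 bases before a RefSeq start (9.41%), on both strands. Of the 16 windows of hypoxia genes 7 held it (43.8%), in Ankrd37, Bnip3, Car9, Hk2, Ldha, P4ha1 and Slc2a1, and of the 9 windows of class II genes, which leave out H2-Ab1, 0 held it. Windows of 4 genes with large differences, chosen after their values were seen, are printed with the letters in capitals: Bnip3 (chr7:138909507-138909626, - strand), Slc16a3 (chr11:120948947-120949066, + strand), Egln1 (chr8:124949255-124949374, - strand) and Car9 (chr4:43506906-43507025, + strand). In Bnip3 the 2 matches overlap on opposite strands, and Slc16a3 holds 2 separate matches. A match of letters is a description and not a measured binding site.
Bnip3: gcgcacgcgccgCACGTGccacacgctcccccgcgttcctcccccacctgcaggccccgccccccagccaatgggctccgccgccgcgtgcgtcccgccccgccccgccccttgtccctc
Slc16a3: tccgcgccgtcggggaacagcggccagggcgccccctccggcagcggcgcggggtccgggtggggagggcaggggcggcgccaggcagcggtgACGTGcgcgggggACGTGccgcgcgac
Egln1: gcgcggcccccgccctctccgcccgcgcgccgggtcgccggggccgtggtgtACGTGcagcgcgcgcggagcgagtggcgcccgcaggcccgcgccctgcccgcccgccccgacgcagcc
Car9: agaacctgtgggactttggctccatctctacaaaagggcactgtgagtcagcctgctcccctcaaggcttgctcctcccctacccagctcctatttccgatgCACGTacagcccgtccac

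Targets of p53 went the other way. p53 is stabilized by DNA damage and other stress and raises genes for cell cycle arrest, apoptosis and its own inhibition. This list too was chosen with earlier results of these data known. All 12 listed targets were lower in positive cells, 8 by at least 1.5-fold (median log2 -0.87, range -1.72 to -0.31), and 9 did not overlap. The list summed to 370, 464, 388 and 432 CPM in positive cells and 612, 917, 640 and 837 CPM in negative cells, so the negative cells of the HU libraries held the most. Cdkn1a, the cyclin-dependent kinase inhibitor p21, had 113, 162, 123 and 130 CPM against 208, 325, 214 and 300 CPM (log2 -0.93, SE 0.0562, adjusted p = 4.99e-08). Phlda3, an inhibitor of AKT, was lower at -1.01, Zmat3, an RNA-binding factor, at -1.17, the apoptosis gene Bax at -0.81 and Mdm2, which targets p53 itself for destruction, at -0.54. Eda2r, a receptor of the TNF family, had the largest difference (-1.72) at a low level, 0.593 to 0.924 CPM against 2.29 to 3.03 CPM.

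The p53 difference was smaller with antibody tag in the block and in tags 1 and 3. Negative cells of tag 2 and tag 4 had high p53 sums, 1370 and 1106 CPM in WT control against 476 and 525 CPM for tags 1 and 3, and positive cells were a smaller share of tags 2 and 4 than of tags 1 and 3 in every library, although tag 2 of Brca2mut/WT control, with 7 of 26 cells positive, was close to tag 1. With library and tag as the block (11 pools with at least 10 cells of each class) 8 of 11 targets tested were lower (median -0.49), and in tags 1 and 3 alone 9 of 12 (median -0.54). In some pools with few positive cells it was larger, for example 537 against 1370 CPM in tag 2 of WT control, with 7 positive cells. The hypoxia list kept 13 of 13 higher in both settings (medians 1.06 and 1.04). Within each pool that held both classes the hypoxia sum was higher in positive cells, for example 6035 against 3387 CPM for tag 1 and 4994 against 2300 CPM for tag 4 of WT control. What separates the tags is unknown, so its part in these differences cannot be told apart from culture, mouse or passage.

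The cyclin-dependent kinase inhibitors, a list added after the values were seen, were divided. Cdkn2a, which encodes p16 and p19Arf, had 54.1, 76.4, 57.4 and 77.4 CPM in positive cells and 140, 244, 170 and 194 CPM in negative cells (log2 -1.44, SE 0.0525, adjusted p = 3.80e-10). Its neighbour Cdkn2b was lower at -0.59, and Cdkn1b, or p27, was higher at 0.34. Of 15 S phase genes 2 were higher and 2 lower (median 0.08), and Pcna, the clamp of the replication fork, differed by 0.06 (adjusted p = 0.410).

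Among genes with at least 20 CPM and the same direction in all 4 libraries, the 15 largest rises held Bnip3 and Ndrg1 of the hypoxia list. The largest was Gsg1l, an accessory subunit of AMPA receptors, at 32.8, 37.5, 39.5 and 30.9 CPM against 7.12, 5.36, 4.30 and 3.81 CPM (log2 2.79, SE 0.117). Mgarp, a mitochondrial protein known to rise in hypoxia, followed at log2 2.77 and Ndufa4l2, a mitochondrial HIF target, at 2.59. 2610528A11Rik, the mouse ligand of the receptor GPR15, stood out by its level, 522, 477, 590 and 475 CPM against 108, 69.9, 123 and 90.8 CPM (log2 2.46, SE 0.0643, adjusted p = 2.31e-11). The others were Ces1d, a carboxylesterase of a gene family with similar copies (2.33), Slc16a3, the predicted gene Gm16754 (1.91), the protease-like gene Prss35 (1.91), Gm15283, the adhesion molecule Ncam1 (1.69), Egln1, the glycogen branching enzyme Gbe1 (1.64) and the meiotic gene Syce2 (1.61). None of the 15 overlapped between classes.

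The 15 largest falls were smaller. Kcne3, a subunit of potassium channels, led them at log2 -1.50 with 17.3, 33.4, 19.99 and 16.8 CPM against 37.3, 104, 63.5 and 57.9 CPM. It was followed by Cdkn2a and by Thrsp, a regulator of fatty acid synthesis, at 28.4, 54.5, 31.3 and 52.9 CPM against 61.8, 151, 105 and 121 CPM (log2 -1.34). Timp3, an inhibitor of metalloproteases, was lower at -1.18, the chemokine Cxcl12 at -1.08, smooth muscle actin Acta2 at -1.0, and Ly6a and Ly6d, surface proteins of a family with similar copies, at -1.12 and -1.0. Ceacam10, an adhesion protein (-1.20), Psrc1, a spindle protein (-1.17), Pla2g7, a phospholipase (-1.10), Phlda3 and Vps36, a sorting protein of endosomes (-0.98), completed those without overlap. Apoe, a lipid carrier, and Id1, an inhibitor of differentiation factors (both -1.03), overlapped between classes. Id1 was at 21.95, 30.7, 20.6 and 20.6 CPM in positive and 29.6, 108, 46.3 and 31.3 CPM in negative cells, and its difference was 0.04 in tags 1 and 3. Ly6d differed by -0.00 with the wider cell filter.

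Vim, an intermediate filament of basal and mesenchymal cells, was higher in positive cells, unlike the other basal markers tested, of which 4 were lower and 4 were not called. It had 57.1, 69.7, 67.8 and 73.7 CPM in positive cells against 23.5, 27.6, 23.1 and 26.4 CPM (log2 1.45, SE 0.0495, adjusted p = 2.10e-10). The 4 lower ones included Acta2 and Trp63, the basal transcription factor p63 (-0.57). The basal list summed to 154, 152, 129 and 155 CPM in positive and 149, 144, 136 and 177 CPM in negative cells, and its most abundant gene was Vim. Of 8 markers of hormone receptor positive (HR+) luminal cells 0 were higher and 3 lower (median -0.56, and -0.29 in tags 1 and 3). Of 9 HR- luminal markers 2 were higher and 2 lower (median 0.02). Of 10 HR- luminal progenitor genes 2 were higher and 4 lower, 3 of the latter by at least 1.5-fold (median 0.03), and the progenitor receptor Kit rose by log2 0.42 (107, 96.5, 113 and 111 CPM against 88.0, 68.6, 89.3 and 83.2 CPM). Itga2, which encodes CD49b, was lower at -1.02. Of 6 fibroblast markers 3 could be tested and 0 were called, and of 6 endothelial and pericyte markers 2 could be tested and 1 was called, higher, at a mean of under 1 CPM.

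Most milk genes differed little. Of 9 tested 4 were higher and 0 lower (median 0.11). With library and tag as the block 2 of 8 were higher and 2 lower, and in tags 1 and 3 alone 4 of 9 were higher and 4 lower. Csn3, or kappa-casein, had 23566, 22825, 21090 and 23932 CPM against 20768, 17257, 17814 and 19252 CPM (log2 0.33), and lost its call with library and tag as the block (log2 0.09). Csn2, or beta-casein, had the largest difference (log2 1.63, SE 0.328) at a low level, 0.396 to 3.54 CPM against 0.105 to 0.8005 CPM. Muc1, a mucin of the apical surface, was higher by 0.85 at 3.20 to 4.94 against 1.74 to 2.74 CPM. Lalba, the milk protein alpha-lactalbumin, had 358, 587, 350 and 733 CPM against 359, 571, 444 and 756 CPM, a difference that was not called (log2 -0.04, adjusted p = 0.529) and whose sign changed with the setting.

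More interferon genes were called lower than higher. Of 14 genes of the interferon gamma pathway 1 was higher and 8 lower (median log2 -0.27). Gbp3, a guanylate-binding protein, was lower at -0.45. Cxcl10, an interferon-induced chemokine, was at 0.258, 0.385, 0.195 and 0.396 CPM against 4.95, 0.893, 10.5 and 19.9 CPM (log2 -4.70), so its size rested on few transcripts in positive cells. Of 19 type I interferon genes 0 were higher and 13 lower (median -0.16). Isg15, a ubiquitin-like modifier, had 446, 567, 479 and 559 CPM against 571, 773, 778 and 706 CPM (log2 -0.42, SE 0.0484), Ifi44 was lower at -0.32 and Oas1a, a sensor of double-stranded RNA, at -0.58. In cells with 2 to 4% mitochondrial UMIs 7 of the 19 were called lower. Class I presentation was divided, with 6 of 17 higher and 3 lower (median 0.12). H2-Q7, H2-T23 and H2-K1 were higher by 0.51, 0.31 and 0.23, and the proteasome subunit Psmb10 and the chaperone Pdia3 were lower at -0.42 and -0.25. Genes of the H2-K, H2-D, H2-Q and H2-T group are near-identical copies, and their single values are uncertain.

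Several inflammatory genes were lower. Of 14 chemokines and cytokines tested 2 were higher and 10 lower (median -0.92), with Cxcl1, which attracts neutrophils, at 38.7, 17.7, 39.1 and 9.49 CPM against 71.2, 51.6, 63.5 and 17.2 CPM (log2 -0.92) and Csf3, a granulocyte growth factor, at -1.60. With library and tag as the block 4 of 10 chemokines and cytokines were lower and 2 higher (median -0.31), and in tags 1 and 3 alone 6 of 13 were lower and 2 higher (median -0.48). The 2 higher in all cells were Ccl28, a mucosal chemokine (1.13), and the lymphocyte cytokine Il15 (0.51). Of 13 acute phase and antimicrobial genes 2 were higher and 7 lower (median -0.34). The chitinase-like gene Chil1 had 5944, 6065, 5923 and 5663 CPM against 7796, 7711, 9118 and 7303 CPM (log2 -0.39), the protease inhibitor Slpi was lower at -1.07, and Pglyrp1, a peptidoglycan-binding protein, was higher at 0.43. Of 5 co-stimulatory and inhibitory ligands tested 3 were higher and 1 lower, and in tags 1 and 3 alone 1 of 4 was higher and 1 lower. Tnfsf9, the ligand of 4-1BB, was at 7.52, 5.85, 7.23 and 5.24 CPM against 3.32, 2.01, 3.38 and 1.75 CPM (log2 1.36), and Lgals9, or galectin-9, was lower at -0.31. Of 14 immediate early and dissociation genes 7 were higher and 0 lower (median 0.12), and with library and tag as the block 11 of 14 were higher (median 0.23) and in tags 1 and 3 alone 12 of 14 (median 0.22). Fos, a transcription factor induced within minutes of handling, had the largest difference of the 7 (log2 0.39).

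The hypoxia difference was graded by the number of H2-Ab1 UMIs. The summed 13 tested hypoxia genes rose from 3170, 2825, 3449 and 3120 CPM in cells with 0 UMIs to 7874, 8536, 8907 and 8008 CPM in cells with 10 or more, which numbered 80, 84, 110 and 49. In every library each step of the 7 bins was upward. Espn rose from 36.5, 26.1, 37.6 and 31.5 CPM to 483, 516, 540 and 459 CPM, the only downward step being from 1 to 2 UMIs in Brca2mut/WT HU (66.5 to 65.1 CPM). Vim rose from 23.5, 27.6, 23.1 and 26.4 to 105, 84.6, 90.8 and 92.9 CPM with more irregular steps. The p53 sum fell mostly between 0 and 2 UMIs, from 612 to 378 CPM in WT control, where it was 376 CPM at 10 or more, and it was higher at 10 or more than at 6 to 9 in every library. Cdkn1a was higher again at 10 or more UMIs (149, 194, 161 and 166 CPM) than at 6 to 9 (113, 158, 112 and 90.6 CPM). Thrsp fell from 61.8, 151, 105 and 121 CPM to 21.0, 23.3, 14.1 and 32.1 CPM, and Lalba was lowest at 10 or more, at 184, 311, 191 and 436 CPM. The median mitochondrial share also fell along the bins, from 3.45%, 3.55%, 3.31% and 3.4% to 1.14%, 1.91%, 1.47% and 2.32%. Median depth was 23619.5 UMIs at 0 and 28502.5 at 10 or more in WT control, so a deeper cell also had more chance to reach a high bin.

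**Figure D4:**
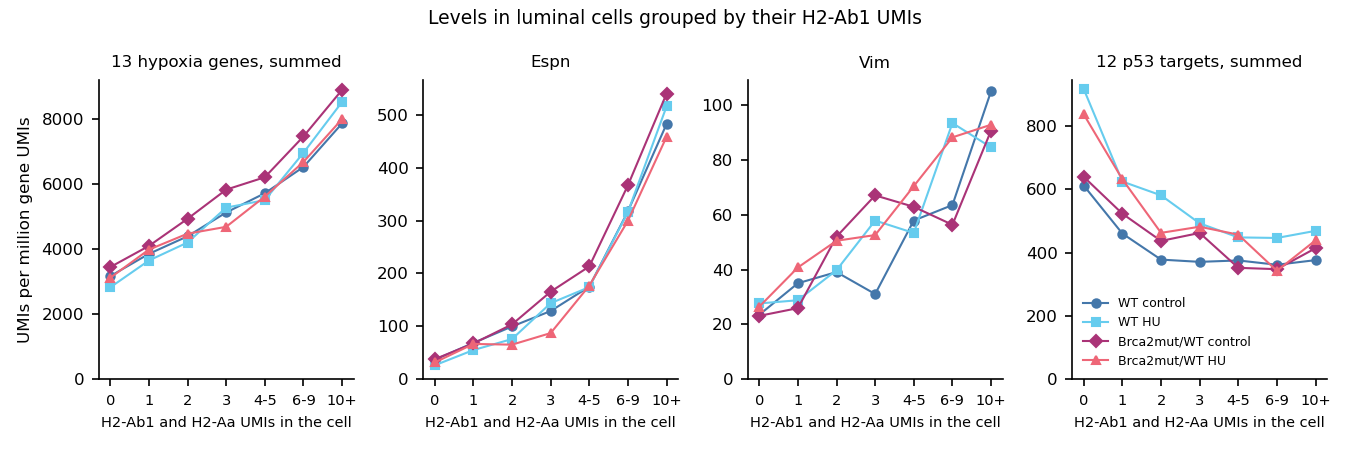
Levels in CPM (linear axes from 0) of the 13 summed hypoxia genes, Espn, Vim and the 12 summed p53 targets in luminal cells grouped by their H2-Ab1 and H2-Aa UMIs, 1 line per library. The hypoxia sum rose from about 3170 to 7874 CPM in WT control, and the p53 sum fell from 612 to 376 CPM.

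Across single cells, thinned to 10000 UMIs each, the 10 genes most like H2-Ab1 included Pgk1 and Car9 of the hypoxia list. The measure was Spearman's rho with the H2-Ab1 and H2-Aa count within a library, over 3146, 2723, 2069 and 1752 cells and 8842 genes, ranked by the lowest of the 4 values, with cells of a library sharing their capture. First was 2610528A11Rik (rho 0.39 to 0.44), then Bsg (0.39 to 0.47), Pgk1, Gapdh, Mif, Fam162a, Espn, Car9, Egln1 and Tpi1 (0.31 to 0.39). Bsg, or basigin, escorts lactate transporters to the membrane, and had 7781, 7672, 8407 and 6289 CPM in positive cells against 3316, 2359, 3010 and 2511 CPM (log2 1.48, SE 0.0566). Mif, a cytokine, was higher by log2 1.13 and Fam162a, a mitochondrial protein known from hypoxia, by 1.11. Genes with a UMI in under 5% of the thinned cells were not ranked, so scarce class II genes such as Cd74 and Ciita could not appear.

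The same difference was present in cells that the limits removed. Among Krt14-high (basal) cells the hypoxia sum was 5452, 4488, 6568 and 4735 CPM in cells with at least 3 UMIs on H2-Ab1 and H2-Aa (151, 97, 88 and 57 cells) against 3370, 2557, 3717 and 2970 CPM in those with none. It was also higher in every library among Areg-high, mitotic and Tmigd1- or Sez6-high cells and in luminal cells with over 6000 genes. No test was made here. The p53 sum was lower in the cells with UMIs in each of these populations and libraries, except among Areg-high cells of Brca2mut/WT control (1602 against 1369 CPM, with 8 cells in the former).

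H2-Ab1-positive cells made up 22.97% of luminal cells under the limits in WT control (exact Clopper-Pearson 95% interval 21.5 to 24.5, 753 of 3278), 17.5% in WT HU (16.2 to 19.0, 509 of 2901), 25.3% in Brca2mut/WT control (23.6 to 27.2, 577 of 2278) and 17.8% in Brca2mut/WT HU (16.1 to 19.6, 343 of 1927). The intervals cover counting error only. The share was lower in the HU library of each genotype, but each condition had 1 library and could not be tested against another. Free RNA in droplets can place UMIs in cells that do not make a transcript, so shares in other cells of the same libraries are given for comparison. Those cells may also make H2-Ab1 themselves, so their shares do not measure free RNA alone. The source of their UMIs was not tested. Krt14-high cells reached 16.0%, 9.52%, 20.3% and 13.2% at a lower median depth (20250.5, 21116, 18817 and 20186 UMIs, against 24339, 24678, 24997.5 and 27869 in luminal cells). Areg-high (HR+) cells reached 15.1%, 7.09%, 7.08% and 7.14%. After thinning each cell to 10000 UMIs, which left out 132, 178, 209 and 175 luminal cells, the luminal shares were 8.74%, 7.46%, 12.2% and 6.34%. Krt14-high cells then had 5.39%, 2.74%, 8.96% and 3.67%, and Areg-high cells 5.67%, 2.33%, 1.96% and 1.20%. At 3 or more UMIs after thinning, luminal shares were the highest of the 3 in every library. The counting intervals of these thinned shares overlapped for luminal and Krt14-high cells in both Brca2mut/WT libraries. For luminal and Areg-high cells they overlapped in all libraries but Brca2mut/WT control. At 1 or more UMIs after thinning this order was seen only in WT HU, with 37.1%, 29.4%, 37.5% and 28.9% of luminal, 40.3%, 29.0%, 42.7% and 30.9% of Krt14-high and 36.9%, 17.1%, 25.5% and 18.1% of Areg-high cells. UMIs on H2-Ab1 were thus counted in each of these populations.

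Shares differed between tag pools of the same library. In WT control they were 29.2%, 11.9%, 21.4% and 7.73% for tags 1 to 4 (of 1464, 59, 1288 and 194 cells), and in WT HU 23.6%, 3.46%, 22.5% and 2.34% (of 860, 463, 1174 and 171). In Brca2mut/WT control they were 28.3%, 26.9%, 33.7% and 7.67% (of 827, 26, 855 and 326). In Brca2mut/WT HU tags 1, 3 and 4 had 18.8%, 23.2% and 3.16% (of 833, 747 and 95), and tag 2 had 0 of 29 cells, which allows a share of up to 10.3%. Tag 4 was under 8% in all 4 libraries. In WT HU tags 2 and 4 held 463 and 171 cells against 59 and 194 in WT control, and in tags 1 and 3 alone the wild-type shares were 25.5% and 22.96% and the Brca2mut/WT shares 31.0% and 20.9%. The difference between the wild-type libraries was thus smaller in those 2 pools, which were chosen after seeing the data. The counting intervals were 23.9 to 27.2 and 21.1 to 24.9 for wild type, and 28.8 to 33.3 and 18.9 to 22.98 for Brca2mut/WT. With 1 library per condition they cannot show whether HU and control differed in either genotype.

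**Figure D5:**
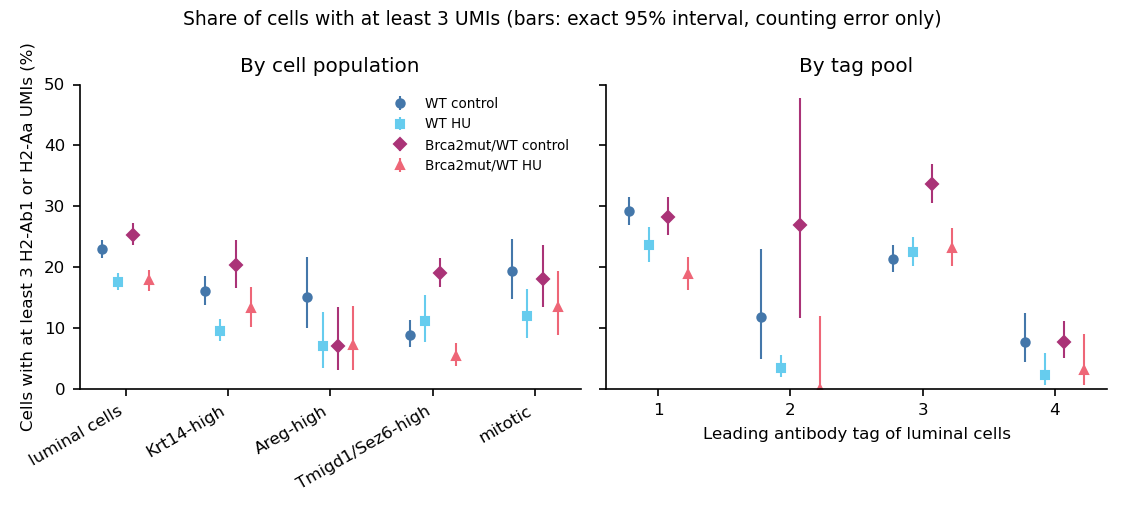
Share of cells with at least 3 UMIs on H2-Ab1 and H2-Aa (%, axis from 0) with exact 95% intervals for counting error, by cell population (left) and, for luminal cells, by leading antibody tag (right). Luminal shares were 17.5% to 25.3%, and cells of tag 4 stayed under 8% in all 4 libraries.

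Few genes were called in the main fit for a class difference that itself differed with genotype or HU, and their number depended on the setting. A test of the difference itself, 2 libraries against 2, called 3 of 13310 genes for genotype (0.0225%; 386 at an unadjusted p under 0.05) and 8 for HU (0.0601%; 846 unadjusted). DESeq2 called 0 and 1, and edgeR with no filter on low counts called 36 and 131. No hypoxia gene was among those called in the main fit, with a lowest adjusted p of 0.9999 for genotype and 0.348 for HU (edgeR). This does not show that the hypoxia difference was equal between genotypes or between HU and control. Among the 8 genes of the HU comparison was Ier3, an immediate early gene that restrains apoptosis, with 882, 509, 1018 and 494 CPM in positive cells and 778, 829, 968 and 664 CPM in negative cells. Hbegf, a ligand of the EGF receptor, had 119, 52.2, 99.3 and 49.8 CPM in positive and 80.8, 81.0, 65.5 and 56.0 CPM in negative cells. Both were higher in positive cells of the control libraries and lower in those of the HU libraries (Hbegf: difference of log2 -1.03, SE 0.112, adjusted p = 0.00418, edgeR). DESeq2 called Hbegf but not Ier3.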

How the data were processed

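The deposited values are counts of UMIs per gene and cell, with no normalization. The authors prepared the libraries with the Chromium single-cell kit version 3 and made the counts with Cell Ranger on the mm10 mouse reference. Version 6.0.2 is named in the methods and 6.1.1 in the file headers. The submitters' processing notes also list Seurat 4.0 and R 4.1.3. The libraries held 302135155, 258821284, 243430259 and 258118001 gene UMIs, and 17360 of 33268 barcodes passed the quality limits that the study describes. The study states a larger number of cells after its quality control, above the number of barcodes in the files, and the difference was not resolved. Counts of the 4 antibody tags were left out of gene totals.

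Counts were summed over the cells of each class in each library, giving 8 sums. They were tested with edgeR 4.0.16 (R 4.3.3), using filterByExpr, TMM factors and the quasi-likelihood test, with library as a block, Benjamini-Hochberg adjustment over all genes and a threshold of 0.05. The 4 libraries are the replicates of the class difference. The study states that several mice were used for each condition, but not how mice were shared between libraries, so control and HU libraries of a genotype may hold the same mice and part of their spread may be technical. The 11 genes of the rule and 3 markers were left out of all counts. The SE printed with a log2 difference is its absolute value divided by the square root of F from the quasi-likelihood test. It is not a separate measure of the spread between libraries. DESeq2 1.42.0 was an alternative. The number of replicates named in the labels could not be tied to cells, and pairing came from the library, which both classes share. Pools are cells whose leading tag held at least 80% of at least 50 tag UMIs. No doublet caller was used. The difference of the class contrast by genotype and by HU was tested as an interaction. Shares have exact Clopper-Pearson 95% intervals, and a count of 0 was bounded by 3 counts. Steps were checked on simulated data.

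The cells, gene lists and markers were chosen with earlier results of these data known. The text names the 15 largest rises and 15 largest falls among called genes with the same sign in all 4 libraries and at least 20 CPM in the higher class of every library. It also names members of the gene and marker lists and the 10 genes most like H2-Ab1 among those with a UMI in at least 5% of thinned cells. Others are said to be chosen after their values were seen. Single values of 2 list members are not reported here. Coordinates are from GENCODE M21 (32158 of 32285 gene identifiers matched), and promoter windows from RefSeq on GRCm38.p6 cover 13 of 14 hypoxia genes and 8 of 10 class II genes. Tables and figures were made with Python 3.11.15, numpy 2.4.6, scipy 1.17.1, pandas 2.3.3 and matplotlib 3.10.9.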

Additional observations from a re-analysis of the deposited data

Results flagged for a closer look

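The difference between H2-Ab1-positive and -negative cells itself differed between genotypes for 3 genes (edgeR, adjusted over all genes). Values are the difference of the log2 contrast, Brca2mut/WT minus wild type. Apoe, the lipid carrier, differed by 0.91, being lower in positive cells by log2 values of -1.44 and -1.61 in the wild-type libraries and -0.80 and -0.56 in the Brca2mut/WT libraries. Pcp4, a calmodulin regulator, differed by -2.31, with 8.40 and 5.16 CPM in the positive cells of the wild-type libraries against 1.37 and 1.78 CPM in those of the Brca2mut/WT libraries. Its negative cells had 3.06, 2.21, 1.95 and 4.41 CPM in the order of the libraries. Rbp4, a retinol carrier, differed by -4.16 and had under 1 CPM in the positive cells of all 4 libraries. Its negative cells had 0.543, 0.223, 6.29 and 1.68 CPM, so the highest level was in those of Brca2mut/WT control.

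The class difference differed between HU and control libraries for 8 genes. Ier3 differed by -0.73 (SE 0.0761) and Hbegf by -1.03 (SE 0.112). Ddit4, a stress-induced inhibitor of mTOR that also responds to hypoxia, differed by -0.78, with 39.2 and 39.98 CPM in the positive cells of the control libraries and 21.8 and 19.3 CPM in those of the HU libraries, while negative cells had 24.0 to 31.4 CPM. Stmn2, a microtubule regulator, differed by -1.73, the annexin Anxa3 by -0.46 and the calcium-binding protein S100a6 by -0.39. Scgb2b27, a secretoglobin of a family with similar copies, differed by 0.46. Mmp3, a matrix protease, differed by 4.89, with 4.78 and 7.61 CPM in the positive cells of the HU libraries against 0.412 and 0.716 CPM in those of the control libraries. Its negative cells went the other way, with 0.769 and 0.175 CPM in the HU libraries against 1.86 and 0.955 CPM in the control libraries. DESeq2 called Hbegf alone of these 8 and none of the 3 genotype genes.

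Luminal cells with over 6000 genes lay outside the limits. They reached the cut of 3 UMIs more often, at a lower level of H2-Ab1 in CPM. At least 3 UMIs were found in 39.2% of 610 such cells of WT control, 30.5% of 613 of WT HU, 41.7% of 532 of Brca2mut/WT control and 31.3% of 651 of Brca2mut/WT HU. Their median depth was 56397.5, 54276, 54977.5 and 57201 UMIs, above that of the cells under the limits in every library, and its part in the higher shares was not tested.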

How the results depend on the processing

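The choice of test, cells and libraries moved how many genes were called but not the hypoxia genes. All 13 were called higher in all 16 alternatives, with medians of 1.03 to 1.46 and a smallest log2 difference of 0.32. The p53 targets were called lower in 8 to 12 cases. Of the 30 genes with the largest differences, 29 or 30 were called in the same direction in each alternative.

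Against 2307 higher and 2312 lower, DESeq2 called 1354 and 1322 and cells with 2 to 4% mitochondrial UMIs gave 1448 and 1476. Without each library in turn 1820 to 2062 were higher and 1773 to 1993 lower. Pairing of the classes by library mattered, since no replicate block gave 1403 higher and 1238 lower. A replicate block of library and antibody tag gave 1920 and 1850. The windows of mitochondrial share and the restriction to tags 1 and 3 were chosen after seeing the data.

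The counts by genotype and HU varied the most. Leaving out a library from them leaves 1 library in an arm, which is assumed to vary like the others. For genotype DESeq2 called 0 genes (38 at an unadjusted p under 0.05; edgeR called 3), no filter on low counts gave 36, and leaving out a library gave 4 to 54 (31 without Brca2mut/WT control, 54 without Brca2mut/WT HU). For HU DESeq2 called 1, no filter gave 131, tags 1 and 3 alone gave 33, and leaving out a library gave 9 to 92 (27 without WT control, 51 without Brca2mut/WT control, 92 without Brca2mut/WT HU). The cause was not tested.

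Shares of positive cells moved as follows, in the order WT control, WT HU, Brca2mut/WT control and Brca2mut/WT HU. Thinned to 10000 UMIs they were 8.74%, 7.46%, 12.2% and 6.34%, at 6 or more UMIs 8.54%, 7.03%, 11.9% and 7.06%, and in tags 1 and 3 25.5%, 22.96%, 31.0% and 20.9%. The wider cell filter gave 24.5% in WT control and 20.04% in Brca2mut/WT HU, at least 100 CPM gave 19.5% in WT HU, and cells with 1 tag gave 27.2% in Brca2mut/WT control.

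The sign of 2 genes changed. Id1 was at 0.044 in tags 1 and 3. Lalba was at 0.23 among cells with 2 to 4% mitochondrial UMIs, and without each library in turn at -0.082 to 0.034, the latter without Brca2mut/WT control. Depth limited the class II genes with under 40 UMIs in either class, for which no direction could be read.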
